A study of Homo sapiens with 10 samples.

Results

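The mitochondrial ribosomal protein genes were read as the nuclear genes whose symbol is MRPL or MRPS followed by a number and, for some, a letter. The rule used the symbol alone and no measured value. It took 76 of the 20535 listed genes, 47 with an MRPL symbol for the large subunit and 29 with an MRPS symbol for the small subunit. The mitochondrial ribosome translates the few mRNAs of the mitochondrial genome, all of which encode subunits of the respiratory chain and of ATP synthase. Its RNAs come from the mitochondrial genome, and its proteins are made in the cytosol from nuclear genes and imported. Some of these proteins have a counterpart in the bacterial ribosome and others are found in mitochondria alone.

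The values are from RNA-seq of K562, a human erythroleukemia cell line, with 2 libraries in each of 5 groups. In 4 groups dCas9 brought repressive domains to HS2, a DNase hypersensitive site and enhancer of the β-globin locus, with all 4 sgRNAs against it (sgHS2): dCas9-KRAB (K) and dCas9-LSD1 (L) are single effectors, and enCRISPRi-LK (LK) and enCRISPRi-KL (KL) are dual effectors. In LK dCas9 is fused to LSD1 and KRAB is recruited through MS2 hairpins of the sgRNA, and in KL the domains are exchanged, by the design of the study. KRAB is a repressor domain, and LSD1 is the histone demethylase encoded by KDM1A. The control libraries carry the label sgGal4, a nontargeting sgRNA, and their titles name no effector. For its RNA-seq fold changes the paper names nontransduced cells as the reference. Whether the sgGal4 libraries held an induced dCas9 fusion is therefore unknown. By the paper's methods the lines were sorted pools of cells transduced by lentivirus, with dCas9 fusions induced by doxycycline. The study speaks of the replicates as separate experiments, whereas the labels give only their numbers, so that p-values measure the spread between these libraries. Values were deposited as TPM, the share of a gene among all transcripts per unit of length, scaled to a fixed total, and the number of reads behind them is unknown.

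Some facts of the whole series bear on these genes. Of the 13 tested of 14 listed K562 markers, HBE1 stood at 361 to 1620 TPM, whereas GATA1 was listed at 0 in all 10 libraries. Of 7 markers of other blood cells, CD3E and MS4A1 were at 0 in all libraries, CD14 did not exceed 0.73 TPM, and 4 were tested: CD3D stood at 26.1 and 33.6 TPM in sgGal4 and at 1.65 to 21.3 TPM in the sgHS2 libraries, PTPRC at 13.1 to 34.8, LYZ at 0.79 to 7.94 and CD3G at 0 to 7.47 TPM. The 7 summed to 45.3 and 54.5 TPM in sgGal4 and to 26.6 to 52.7 TPM in the sgHS2 libraries. The 3 stromal markers summed to 0.54 to 4.25 TPM, with COL3A1 at 0. The part of these markers in the results was not tested. The genes of the effectors did not follow the labels throughout. KDM1A stood at 104.7 and 84.2 TPM in the libraries labelled L and at 25.2 to 33.5 TPM in the others, and ZNF10, the source of the KRAB domain, stood at 0.970 to 3.80 TPM in the sgGal4 and K libraries, at 128 and 136 in L, at 31.5 and 36.8 in LK and at 360 and 365 in KL. K, L, LK and KL therefore mean the libraries labelled so. The sgGal4 library of replicate 1 stood apart, with 53.6% of its listed TPM in the 13 mRNAs of the mitochondrial genome against 43.7% in replicate 2 and 39.9% to 46.6% in the 8 sgHS2 libraries. Values without this library are given beside several of the results that rest on it, though not for the medians by subunit or by numbering.

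The members were expressed at similar levels for the most part. Of the 76 genes, 72 averaged 1 TPM or more across the libraries and entered the tests, 45 MRPL and 27 MRPS. Their mean levels ran from 5.03 to 189 TPM with a median of 56.6 TPM, which lay at percentile 85.4 of the 10127 genes tested. Between 10 and 100 TPM lay 60 of the 72, 10 were higher and 2 were lower. The medians of both subunits were close, with 56.4 TPM for MRPL and 56.7 TPM for MRPS, and so were those of 44 tested members with the number of a bacterial ribosomal protein, 56.1 TPM, and of the 28 with a higher number, 57.7 TPM. MRPL47, MRPS24 and MRPS28, which have a bacterial counterpart under another number, were counted with the former. Across the 71 members above 0 in every library, the highest library was 1.17 to 2.95 times the lowest, with a median of 1.79.

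**Figure D1:**
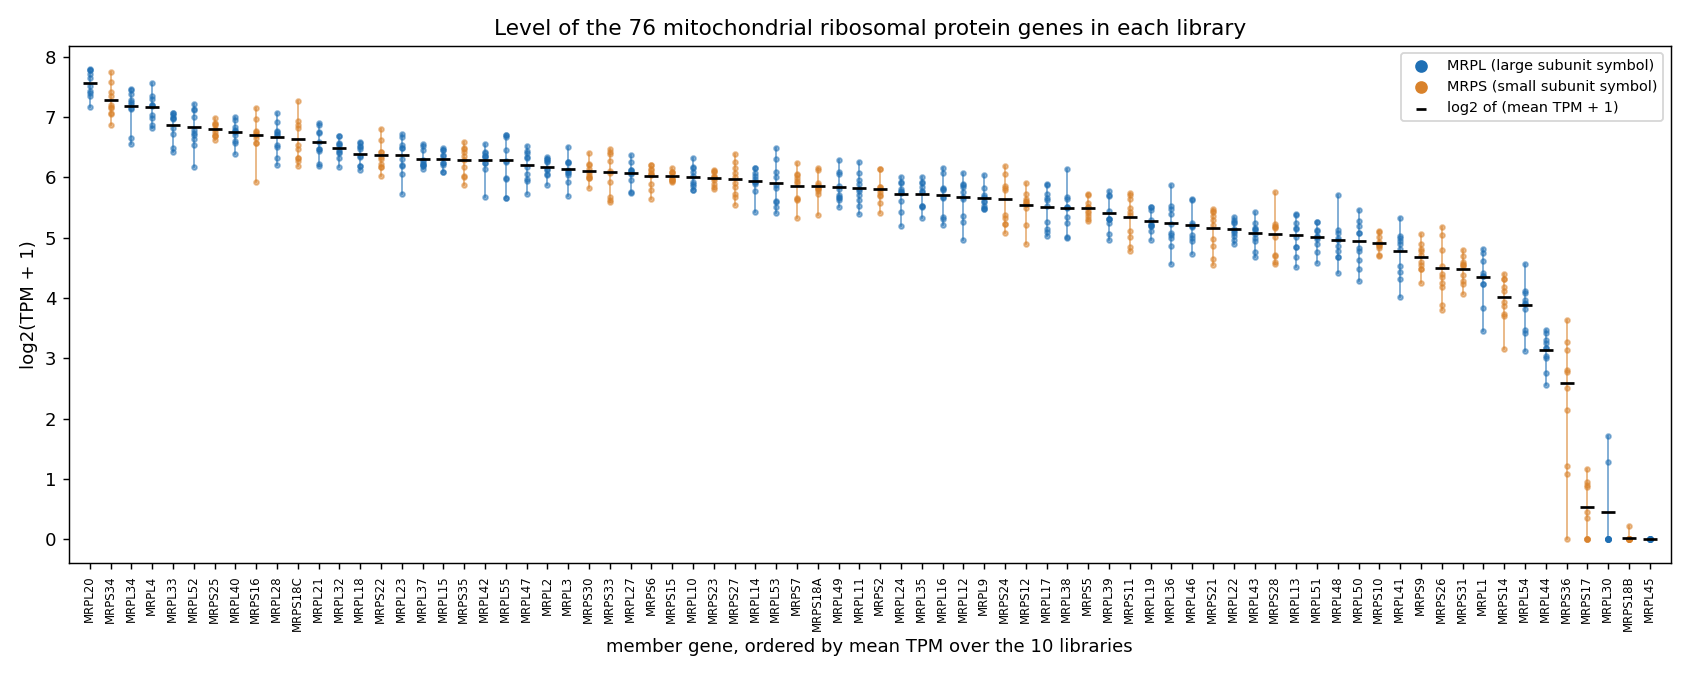
Level of each of the 76 genes in each of the 10 libraries as log2(TPM + 1), ordered along the horizontal axis by mean TPM. Points are libraries, coloured by MRPL or MRPS symbol, vertical lines span the lowest to the highest library and black dashes are log2 of the mean TPM plus 1. Levels fall slowly from MRPL20 to MRPL44, and MRPS36, MRPS17, MRPL30, MRPS18B and MRPL45 stand apart at the low end.

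The highest large subunit member was MRPL20, which has a bacterial counterpart, at 143 to 220 TPM and a mean of 189 TPM (hg19, chromosome 1, 1337289 to 1342673, minus strand). It was followed by MRPL34 with a mean of 144 TPM and by MRPL4, a protein at the peptide exit tunnel, with a mean of 142 TPM. MRPL20 lay above MRPL4 in all 10 libraries, whereas MRPL34 and MRPL4 could not be put in order, since their ranges of 92.8 to 175 and 111 to 188 TPM overlapped almost throughout. Among small subunit members MRPS34, which is found in mitochondria alone and is needed for a stable small subunit, was highest with a mean of 154 TPM. MRPS25 with 110 TPM and MRPS16 with 103 TPM came next, and their ranges of 97.2 to 126 and 59.6 to 141 TPM overlapped. MRPL12, the stalk protein that recruits translation factors, ranked 28 among the MRPL genes with a mean of 49.7 TPM.

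The low end held genes with doubtful values. MRPS36 had a mean of 5.03 TPM, the lowest of the members tested, and was listed at 0 in L replicate 1 and at 11.4 TPM in KL replicate 2. It is an MRPS gene by symbol only, as its protein is known as a subunit of the 2-oxoglutarate dehydrogenase complex. MRPL44, which has an RNase III fold, stood at 4.85 to 10.1 TPM. The 4 members that did not pass the filter were MRPL45, MRPL30, MRPS17 and MRPS18B. MRPL45, which helps to bind the ribosome to the inner membrane, was listed at 0 in all 10 libraries. MRPL30 stood at 2.26 TPM in K replicate 1, at 1.42 TPM in LK replicate 1 and at 0 in the other 8. MRPS17 did not exceed 1.23 TPM, and MRPS18B was listed at 0.17 TPM in sgGal4 replicate 1 and at 0 elsewhere.

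These zeros cannot be read as absence of the mRNA. MRPS18B lies on chromosome 6 (hg19, 30585617 to 30594172, plus strand), and 28 of the 30 listed genes within 500000 bases of it, 93.3%, were at 0 in all 10 libraries, against 27.5% of the 17990 listed genes with a position. MRPL45 had 6 of 15 such neighbours at 0, MRPL30 had 1 of 11 and MRPS17 had 0 of 7. MRPS17 overlaps NIPSNAP2 on the same strand, and MRPL30 overlaps other protein-coding genes on its strand. None of these was found among the listed symbols under its GENCODE name, and a gene listed under another name would be missed. MRPL28 and MRPL33, with means of 101 and 116 TPM, also overlap a coding gene on their strand that was not found. Only reads that aligned to 1 place were kept by the authors, and GENCODE holds 75 pseudogenes named after 35 of the members, among them 2 of MRPL45, 4 of MRPS17, 2 of MRPS18B, 5 of MRPS36 and 8 of MRPS21. Of these 35 members, however, 31 passed the filter, and MRPS21 stood at 22.2 to 43.6 TPM. The part of these copies and overlaps in the low values was not tested.

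The MRPS18 paralogs encode related proteins, which sit at different places in the ribosome. MRPS18A, whose protein lies in the large subunit despite its symbol, stood at 40.7 to 70.2 TPM. MRPS18C, a small subunit protein, stood at 72.1 to 152 TPM and above MRPS18A in all 10 libraries. MRPS18B, the other small subunit paralog, is the one with the doubtful zeros. MRPS30, a second protein of the large subunit with an MRPS symbol, stood at 55.9 to 83.4 TPM. None of the differences of MRPS18A, MRPS18C and MRPS30 from sgGal4 passed the threshold in any group.

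Promoters of the members were read from RefSeq (GRCh38.p14) for what they share, since factors named NRF1, GABP and YY1 are textbook regulators of nuclear genes for mitochondrial proteins. A window of 300 bases, 250 before the start and 50 from it on, was found for 67 of the 76 members, and 3 sets of letters were searched on both strands. Which spellings to search was decided with the values known. CCGGAAGT, an ETS and GABP-type motif, was in 11 members, 16.4%, against 4.44% of all 27305 promoters and 6.35% of those of listed genes. AAGATGGCG, a YY1-type motif, was in 13 members, 19.4%, against 1.85% and 2.86%. GCGCATGCG, an NRF1-type motif that overlaps its own reverse complement, was in 3 members, 4.48%, against 2.10% and 2.76%. At least 1 of the 3 was in 24 members, 2 or more in 3 members, and 43 had none. Promoters of the members had a median GC content of 60.3%, against 63.0% for listed genes.

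The YY1-type letters lay close to the start, at a median of base 8.5 counted from the start, and 10 of their 14 matches began at or after it. Their ATG was an annotated start codon in 9 of the 13 members. Some of the matches at a start codon are shown in short windows, with the motif in capitals and written along the gene's strand. The capitals are the same in each because these letters were searched for. Matches elsewhere, such as that of MRPL32 at base -223 on the opposite strand, are not shown. They are from MRPL46 (chr15:88467362-88467390, minus strand), MRPS10 (chr6:42217834-42217862, minus strand), MRPS18A (chr6:43687764-43687792, minus strand), MRPS18B (chr6:30617853-30617881, plus strand) and MRPS30 (chr5:44808950-44808978, plus strand).
MRPL46: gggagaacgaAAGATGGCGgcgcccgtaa
MRPS10: cgggaccggcAAGATGGCGgcgcggacag
MRPS18A: taggtttttgAAGATGGCGgccctcaagg
MRPS18B: ggcgtacgtcAAGATGGCGgcgtctgtat
MRPS30: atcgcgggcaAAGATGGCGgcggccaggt

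The ETS and GABP-type matches lay mostly before the start, at a median of base -39 and on either strand. They are shown for MRPL20 (chr1:1407320-1407347, minus strand), the highest large subunit member, and for MRPL47 (chr3:179604660-179604687, minus strand). An NRF1-type match is shown for MRPS18C (chr4:83455912-83455940, plus strand). A match describes the letters and is no evidence of binding in these cells.
MRPL20: gaccttcgccCCGGAAGTatcgcagggg
MRPL47: gcttgagacgCCGGAAGTgacgctatcg
MRPS18C: gaaaggtgctGCGCATGCGtattgaaaaa

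The first comparison asked whether the members as a whole differed from sgGal4 in the cells with a perturbed HS2. The summed TPM of the 47 MRPL genes was 2388 and 2600 in sgGal4, 3245 and 2999 in K, 2990 and 2807 in L, 3129 and 3095 in LK, and 2817 and 2887 in KL. All 8 sgHS2 libraries lay above both sgGal4 libraries, and the group means were 114% to 125% of that of sgGal4. The summed TPM of the 29 MRPS genes was 1262 and 1429 in sgGal4, 1723 and 1638 in K, 1425 and 1629 in L, 1618 and 1666 in LK, and 1556 and 1473 in KL. Here L replicate 1 lay just under sgGal4 replicate 2, and the group means were 113% to 125% of that of sgGal4. The summed level of the large subunit over that of the small subunit was 1.86 ± 0.0520 (SD, n = 2) in sgGal4, 1.86 ± 0.0371 in K, 1.91 ± 0.265 in L, 1.90 ± 0.0541 in LK and 1.89 ± 0.107 in KL. The 2 replicates of L, with 2.10 and 1.72, were the highest and the lowest of the 10 libraries, so the ratio did not separate the groups beyond their spread.

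Because TPM is a share, the members' sum moves with the mitochondrial mRNAs, which took 48.7 ± 7.05% (SD, n = 2) of the listed TPM in sgGal4 and 42.1% to 46.4% on average in the sgHS2 groups. As a share of the TPM of all other genes, the members took 0.932% and 0.880% in sgGal4, 1.03% and 1.05% in K, 1.01% and 1.01% in L, 1.03% and 1.03% in LK, and 0.951% and 0.968% in KL. All 8 sgHS2 libraries remained above both sgGal4 libraries on this scale, with group means of 106% to 115% of sgGal4. The differences between groups were thus smaller on this scale than in the sums. In bulk libraries of this kind, less of an mRNA per cell and fewer cells with it cannot be told apart.

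**Figure D2:**
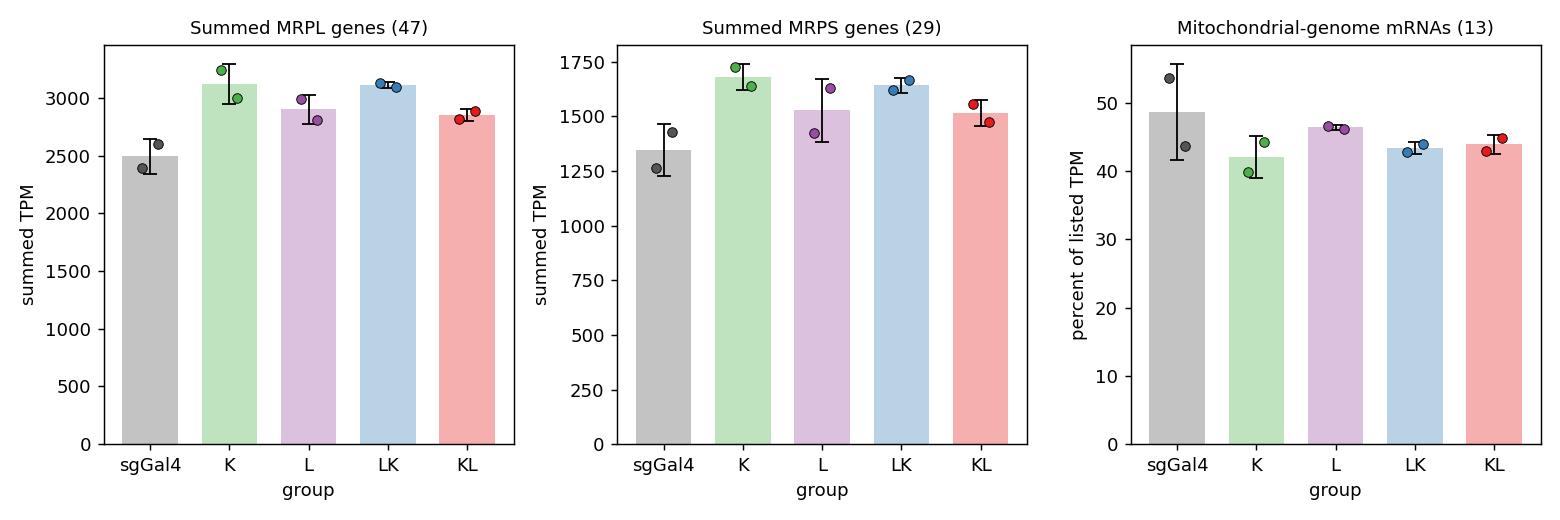
Summed TPM of the 47 MRPL genes (left), summed TPM of the 29 MRPS genes (middle) and percent of listed TPM in the 13 mitochondrial mRNAs (right) by group. Bars are means of 2 libraries, error bars are 1 SD and points are libraries. The MRPL sums of all 8 sgHS2 libraries lie above the sgGal4 libraries at 2388 and 2600, and sgGal4 replicate 1 has the highest mitochondrial share, 53.6%.

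Gene by gene, limma on log2(TPM + 1) with Benjamini-Hochberg adjustment over the 10127 genes called few members, with an adjusted p under 0.05 as the threshold. In K, 1 of the 72 members was called, MRPL34, against 1.62% of all genes (0.879% higher). In LK, 3 were called, MRPL34, MRPL1 and MRPS34, all higher, against 2.00% of all genes (1.18% higher). In L, 0 were called against 0.869% of all genes, and in KL, 0 against 1.36%, while 9 members in L (12.5%, against 12.8% of all genes) and 7 in KL (9.72%, against 14.7%) had an unadjusted p under 0.05. The same count was 20 in K (27.8%, against 15.6%), 19 in LK (26.4%, against 14.2%) and 22 for the mean of the 4 groups (30.6%, against 17.1%). For the mean of the 4 sgHS2 groups, 2 were called, MRPL34 and MRPL1, both higher, against 3.26% of all genes (1.78% higher). The test of any difference among the 5 groups called 1, MRPL34 (limma adjusted p = 0.0355), against 1.82% of all genes. Counts of 1 to 3 in 72 are too few to set against these background shares and are not read as a result about the members as a set. All of these comparisons use the same 2 sgGal4 libraries.

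Many small differences in 1 direction lay under the threshold. For the mean of the 4 groups, the difference was above 0 in 61 of the 72 members and below it in 11, with a median of 0.25 on the log2 scale, against 53.6% above 0 and a median of 0.03 over all genes. In K the count was 59 above with a median of 0.28, in L 57 with 0.15, in LK 55 with 0.29, and in KL 56 with 0.15. Over all genes 54.6%, 50.6%, 52.6% and 54.7% were above 0, with medians of 0.06, 0.00, 0.03 and 0.05. Without sgGal4 replicate 1, the median of the members for the mean of the 4 groups was 0.14 and that of all genes -0.11, and with the mitochondrial mRNAs removed and the rest rescaled they were 0.15 and -0.06. Both settings thus moved all genes down by about as much as the members. The sgGal4 library of replicate 1 held the lowest of the 10 values for 30 of the 72 members, against 22.8% of all genes.

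The difference between the subunits was not tested, and their medians are given side by side. For the mean of the 4 groups the median difference was 0.25 for the 45 MRPL and 0.25 for the 27 MRPS genes, with 38 and 23 above 0. In K the medians were 0.24 and 0.38, in L 0.14 and 0.16, in LK 0.32 and 0.26, and in KL 0.15 and 0.15. The 44 members numbered like a bacterial protein or known as the counterpart of one had a median of 0.30 for the mean of the 4 groups, with 37 above 0, and the other 28 had 0.16, with 24 above 0. That division was made after the values were seen and its difference was not tested. All of these medians include sgGal4 replicate 1.

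**Figure D3:**
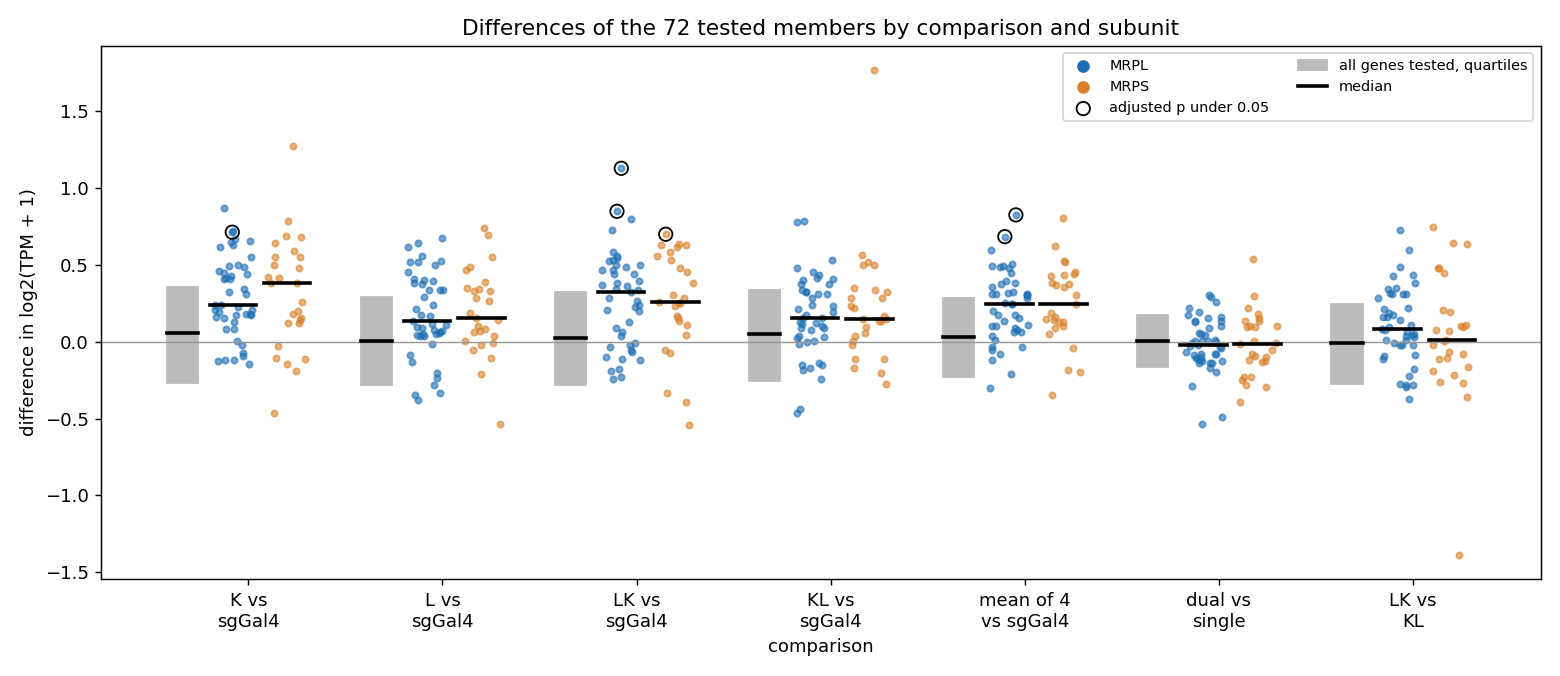
Differences of the 72 tested members on the log2(TPM + 1) scale in 7 comparisons. Points are genes, black lines are medians, grey boxes span the quartiles of all 10127 genes tested and black rings mark an adjusted p under 0.05. Most points lie above 0 in the comparisons with sgGal4, with medians of 0.15 to 0.29, whereas both comparisons between effectors are centred near 0.

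In 9 of the 72 members all 8 sgHS2 libraries lay above both sgGal4 libraries, and in 0 all lay below, against 6.53% and 5.29% of all genes. These were MRPL1, MRPL4, MRPL20, MRPL21, MRPL34, MRPL40, MRPS2, MRPS11 and MRPS34. With the mitochondrial mRNAs removed and the rest rescaled the count above was 4, against 4.86% of all genes on that scale. MRPL21, MRPL40 and MRPS2 are named here because their values were seen.

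MRPL34 was the member with the smallest adjusted p in each comparison with sgGal4. It encodes a small protein of the large subunit with a bacterial counterpart and lies on chromosome 19 (hg19, 17403418 to 17417652, plus strand). Its level was 99.9 and 92.8 TPM in sgGal4, 166 and 151 in K, 147 and 155 in L, 175 and 174 in LK, and 141 and 139 in KL. Every sgHS2 library was above both sgGal4 libraries, and the LK libraries were the highest. The log2 difference from sgGal4 was 0.71 in K (SE 0.147, limma adjusted p = 0.0297), 0.64 in L (adjusted p = 0.0623), 0.85 in LK (adjusted p = 0.0108) and 0.53 in KL (adjusted p = 0.0920), and for the mean of the 4 groups it was 0.68 (SE 0.116, adjusted p = 0.00518). Without sgGal4 replicate 1 the values were 0.77 in K (adjusted p = 0.0600), 0.90 in LK (adjusted p = 0.0264) and 0.74 for the mean (adjusted p = 0.0276). The call in K was also lost without sgGal4 replicate 2, without either library of K, LK or KL, and with the mitochondrial mRNAs removed (adjusted p = 0.0502 to 0.140). The call in LK was lost without LK replicate 1 (adjusted p = 0.105) or 2 (adjusted p = 0.122). Without a mean-variance trend in the fit none of the 3 members called was past the threshold in any of these comparisons (adjusted p = 0.0897 to 0.216). MRPL34 overlaps ABHD8, an antisense gene with a mean of 3.40 TPM.

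The 250 bases before the start of MRPL34 are shown because it is the member called most often (chr19:17292323-17292572, plus strand). They hold none of the 3 motifs, and no letters are in capitals. Their GC content was 72.4%.
MRPL34: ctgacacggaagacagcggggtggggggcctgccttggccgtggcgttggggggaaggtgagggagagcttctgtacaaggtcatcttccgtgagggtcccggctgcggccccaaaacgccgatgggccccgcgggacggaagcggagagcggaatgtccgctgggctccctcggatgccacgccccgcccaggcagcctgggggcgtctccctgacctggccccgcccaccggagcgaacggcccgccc

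MRPL1 encodes the protein of the mobile stalk by which the deacylated tRNA leaves the ribosome (hg19, chromosome 4, 78783984 to 78873939, plus strand). Its level was 9.93 and 13.3 TPM in sgGal4, 19.6 and 19.7 in K, 17.7 and 20.2 in L, 26.9 and 25.7 in LK, and 17.9 and 23.4 in KL. All sgHS2 libraries were higher than both sgGal4 libraries. The log2 difference was 1.13 in LK (SE 0.265, limma adjusted p = 0.0429), the largest rise of any member there, and 0.83 for the mean of the 4 groups (SE 0.210, adjusted p = 0.0471), while 0.72 in K, 0.67 in L and 0.78 in KL did not pass (adjusted p = 0.178 to 0.297). Both calls were close to the threshold and were lost without sgGal4 replicate 1, with 0.94 in LK (adjusted p = 0.217) and 0.63 for the mean (adjusted p = 0.332). They were also lost without any single library of the sgHS2 groups (adjusted p = 0.0524 to 0.278), and the call for the mean was lost without sgGal4 replicate 2 (adjusted p = 0.0672). With the replicate number as a block the adjusted p was 0.0581 in LK and 0.0598 for the mean.

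The stretch before the start of MRPL1 (chr4:77862580-77862829, plus strand) also held none of the 3 motifs, with a GC content of 49.2%, against 72.4% for MRPL34. It is shown in lower case for comparison with the other members called.
MRPL1: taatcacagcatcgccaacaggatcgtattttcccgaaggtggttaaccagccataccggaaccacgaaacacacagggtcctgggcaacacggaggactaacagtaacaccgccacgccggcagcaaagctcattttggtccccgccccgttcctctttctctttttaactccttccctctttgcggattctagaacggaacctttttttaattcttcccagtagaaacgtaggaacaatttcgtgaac

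MRPS34 lies on chromosome 16 (hg19, 1821891 to 1823151, minus strand) and overlaps EME2, an antisense gene with a mean of 4.75 TPM. Its level was 132 and 116 TPM in sgGal4, 161 and 170 in K, 140 and 133 in L, 191 and 213 in LK, and 146 and 142 in KL. The LK libraries were the highest and the L libraries lay only just above sgGal4. The log2 difference was 0.70 in LK (SE 0.149, limma adjusted p = 0.0277), 0.42 in K (adjusted p = 0.184), 0.22 in KL (adjusted p = 0.544) and 0.14 in L (adjusted p = 0.758). LK lay 0.48 above KL, which did not pass (adjusted p = 0.262). The call in LK was the same in 11 of the 19 alternative settings. The call in LK held without sgGal4 replicate 1 (0.79, adjusted p = 0.0443), and was lost without sgGal4 replicate 2 (adjusted p = 0.0795), without LK replicate 1 (adjusted p = 0.131) or 2 (adjusted p = 0.302), and with the mitochondrial mRNAs removed (0.57, adjusted p = 0.0830).

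The stretch before the start of MRPS34 (chr16:1773135-1773384, minus strand) held an ETS and GABP-type match on the opposite strand, in capitals, which begins at base -20.
MRPS34: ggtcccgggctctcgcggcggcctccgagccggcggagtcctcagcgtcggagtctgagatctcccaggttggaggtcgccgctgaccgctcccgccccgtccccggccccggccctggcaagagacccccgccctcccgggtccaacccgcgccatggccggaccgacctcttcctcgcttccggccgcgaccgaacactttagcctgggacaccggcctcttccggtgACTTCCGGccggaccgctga

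**Figure D4:**
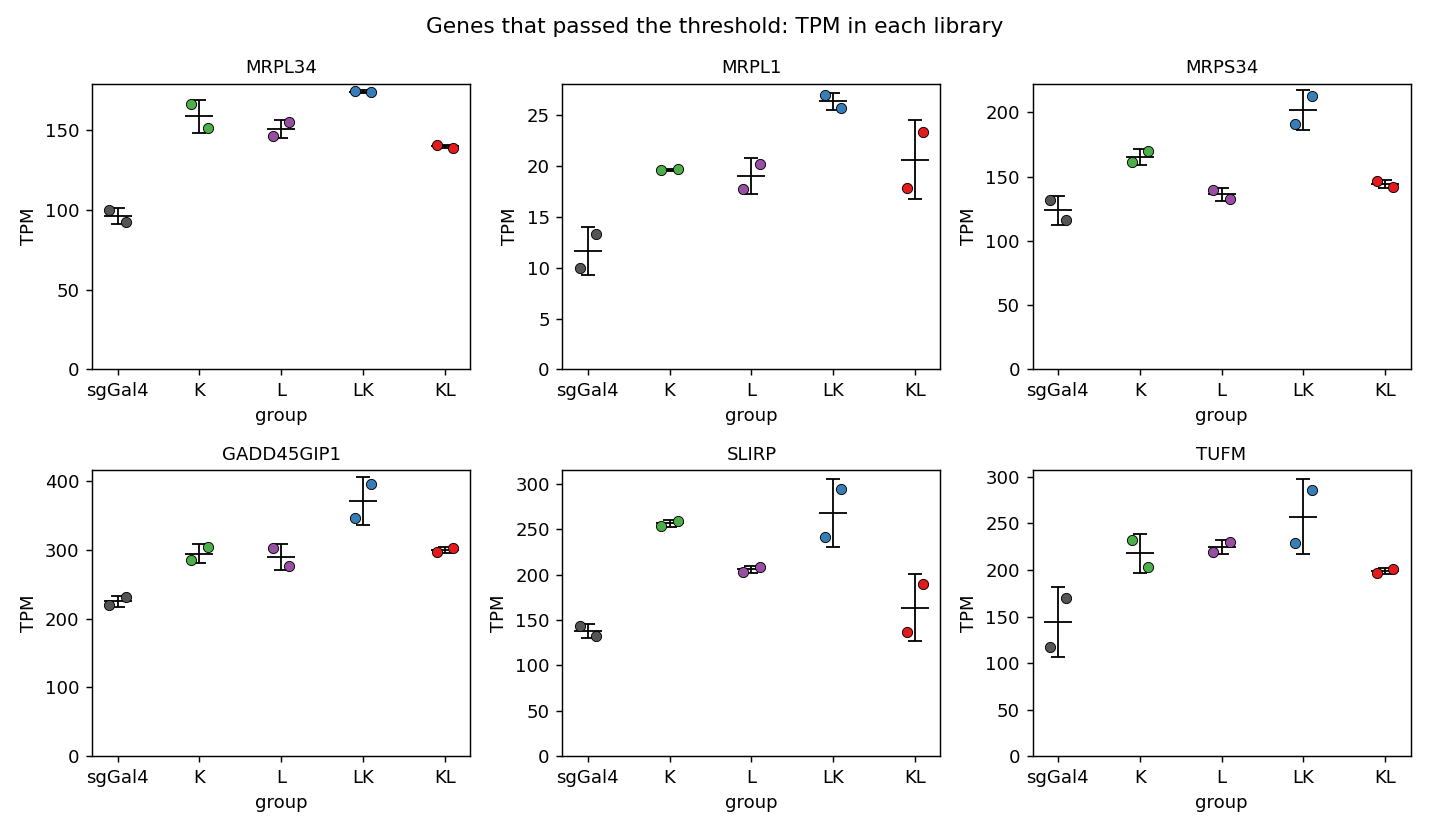
TPM in each library for the 3 members that passed the threshold (top row) and for 3 genes of mitochondrial translation outside the MRPL and MRPS symbols that did (bottom row), by group. Points are libraries, horizontal lines are means of 2 and error bars are 1 SD, and each vertical axis starts at 0. MRPL34 lies at 92.8 and 99.9 TPM in sgGal4 and at 139 to 175 TPM in the other 8 libraries.

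The largest rises and falls of the other members did not pass the threshold. In K, MRPS36 had the largest positive difference, 1.28 (SE 0.751, limma adjusted p = 0.446), and MRPL55 the next, 0.87 (adjusted p = 0.0659), at 62.6 and 49.5 TPM in sgGal4 and 103 and 103 in K. MRPL4 in K had 0.61 (adjusted p = 0.0705), and MRPL12 in LK had 0.80 (adjusted p = 0.0950). In L the largest positive differences were those of MRPS26, 0.74 (adjusted p = 0.359), and MRPS11, 0.70 (adjusted p = 0.253), 2 proteins of the small subunit. In KL they were those of MRPS36, 1.77 (adjusted p = 0.292), and MRPL54, 0.79 (adjusted p = 0.321). The interval of the MRPS36 difference in KL, 0.16 to 3.38, shows how little these libraries fix the level of that gene.

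Few members were lower. MRPS27, a pentatricopeptide repeat protein of the small subunit, stood at 66.3 and 82.6 TPM in sgGal4, 75.1 and 70.5 in K, 45.7 and 56.2 in L, 49.8 and 51.5 in LK, and 58.8 and 63.1 in KL. Its log2 difference was -0.54 in L (limma adjusted p = 0.242) and -0.54 in LK (adjusted p = 0.207), the largest negative values there, and the libraries of L, LK and KL all lay below both sgGal4 libraries. MRPL47, a large subunit protein with a bacterial counterpart, had -0.46 in KL (adjusted p = 0.365), and MRPL36 had -0.44 (adjusted p = 0.385). MRPL50 had -0.38 in L, MRPS6 -0.39 in LK, and in K MRPS14 had -0.46 and MRPS31 -0.19. None of these falls passed the threshold.

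The next comparison asked whether dual effectors differed from single ones. Of the 72 members 0 were called for the mean of LK and KL against the mean of K and L, against 0.0889% of all genes, and 1, MRPL41, had an unadjusted p under 0.05 (1.39%, against 7.45% of all genes). The difference was above 0 in 32 members and below it in 40, with a median of -0.02. Over all genes 51.3% were above 0, with a median of 0.01. MRPL41, of the large subunit, stood at 28.9 to 38.9 TPM in the 4 single-effector and at 19.0 to 27.2 TPM in the 4 dual-effector libraries, which did not overlap, with a difference of -0.54 (95% interval -1.0 to -0.07, limma adjusted p = 0.613). The sgGal4 libraries, with 15.2 and 29.7 TPM, reached from below the lower of these ranges into the higher. MRPL44 had -0.49 (adjusted p = 0.699), and the largest positive differences were 0.54 for MRPS36 and 0.31 for MRPL54. For MRPL34 the difference was 0.01, with an interval of -0.21 to 0.24.

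LK and KL, labelled with the same domains in the opposite arrangement, were compared last. The KDM1A level in LK and KL, 26.6 to 30.6 TPM, lay within that of the sgGal4 libraries, 25.2 and 33.5 TPM, and the ZNF10 level was lower in LK than in KL. That both domains were present is taken from the labels. None of the members was called by limma (0, against 0.385% of all genes), while 8 had an unadjusted p under 0.05 (11.1%, against 9.84% of all genes), all higher in LK. The difference was above 0 in 46 members with a median of 0.07, against 49.2% above 0 and a median of -0.01 for all genes. MRPS21 stood at 41.8 and 43.6 TPM in LK and at 22.2 and 28.1 in KL, a difference of 0.75 (interval 0.26 to 1.23, limma adjusted p = 0.250). MRPL36 stood at 41.04 and 43.6 TPM in LK and at 22.6 and 28.1 in KL, a difference of 0.72 (interval 0.25 to 1.20, adjusted p = 0.252). Both genes encode small proteins with bacterial counterparts, and their intervals did not include 0 although the adjusted p did not pass. The largest negative differences were -1.39 for MRPS36 and -0.37 for MRPL50.

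The other genes of mitochondrial translation were read as lists. Over all genes, 1.62% were called in K, 2.00% in LK and 3.26% for the mean of the 4 groups. The 6 mitochondrial ribosome proteins with other symbols, all tested, were all above 0 for that mean, with a median of 0.25. Of these 6, 1 was called in LK and for the mean of the 4 groups. This was GADD45GIP1, a large subunit protein, at 220 and 231 TPM in sgGal4, 284 and 304 in K, 302 and 276 in L, 346 and 396 in LK, and 296 and 302 in KL. Its difference was 0.71 in LK (limma adjusted p = 0.0152) and 0.47 for the mean (adjusted p = 0.0275), with all sgHS2 libraries above sgGal4. Without sgGal4 replicate 1 both calls were lost, with 0.68 in LK (adjusted p = 0.0509) and 0.43 for the mean (adjusted p = 0.152). Of 16 translation factors, all tested, SLIRP, which stabilises mitochondrial mRNAs together with LRPPRC, rose by 0.90 in K (adjusted p = 0.0182), by 0.95 in LK (adjusted p = 0.0122) and by 0.66 for the mean (adjusted p = 0.0153). Without that library the SLIRP difference passed in LK, 1.01 (adjusted p = 0.0384), and not in K (0.95, adjusted p = 0.0573) or for the mean (0.72, adjusted p = 0.0841). TUFM, the elongation factor that brings aminoacyl-tRNA to the ribosome, rose by 0.85 in LK (adjusted p = 0.0277) and by 0.65 for the mean (adjusted p = 0.0245), and both TUFM calls were lost without sgGal4 replicate 1, with 0.58 (adjusted p = 0.157) and 0.39 (adjusted p = 0.284). The 16 factors as a list had 9 above 0 and 7 below for the mean of the 4 groups, with a median of 0.05. None of 25 tested assembly and rRNA modification factors was called in any of the 7 comparisons, with a median of 0.10 for the mean of the 4 groups, and the same held for 13 genes of mitochondrial transcription and its regulators, with a median of 0.03.

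Some of the mRNAs that the ribosome translates were lower. For the mean of the 4 groups, 10 of the 13 were below 0. Of these, 6 were called lower, against 150 of the 10127 genes tested. They fell by 0.28 to 0.68 on the log2 scale, among them MT-CO1, MT-CO3, MT-ND4, MT-ND4L and MT-ND5. MT-ND6, the one encoded on the light strand, rose by 0.61 (limma adjusted p = 6.05e-04). These values rest in part on sgGal4 replicate 1, the library with the highest mitochondrial share, whereas that of sgGal4 replicate 2, 43.7%, lay within the range of the sgHS2 libraries. Without replicate 1 the calls of MT-CO3 (-0.37), MT-ND4 (-0.36), MT-ND5 (-0.42) and MT-ND6 (0.73) held, those of MT-CO1, MT-CO2 and MT-ND4L were lost (adjusted p = 0.178 to 0.327), MT-ND1 passed with 0.27 (adjusted p = 0.0181), and the median of the 13 was -0.10 in place of -0.28. These mRNAs took 39.9% to 53.6% of the listed TPM, and the members' values with them removed are those given above. The cytosolic ribosomal protein genes and the nuclear subunits of the respiratory chain and ATP synthase had medians nearer that of the members than the lists of factors above. Over all genes tested, 53.6% were above 0 for the mean of the 4 groups and 3.26% were called (1.78% higher). The 74 tested cytosolic ribosomal protein genes had a median of 0.33 for that mean, with 72 above 0. Of these 74, 26 were called, 25 higher and RPL8 lower. The 73 tested nuclear subunits of the respiratory chain and ATP synthase had a median of 0.27, with 63 above 0 and 5 called, all higher. Without sgGal4 replicate 1 the medians of these lists were 0.24 and 0.15, against -0.11 for all genes, and fewer genes were called in both. Whether the members differ from these lists was not tested.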

How the data were processed

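RNA-seq libraries of K562 cells were assigned to their groups from the sample titles, 2 in each of 5 groups. The authors aligned reads to hg19 with STAR (version 2.5.2b in the submitters' processing notes), kept those with a single location, and deposited one RSEM value in TPM for each gene symbol. The labels name poly(A) selection with a directional kit, whereas the paper names the Ovation system. The annotation used is not given in the sources used here. TPM keeps no read count, so depth, and any limit that rests on it, is unknown. The authors' DESeq2 test needs counts and was not repeated.

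The members, gene lists, motifs and comparisons were chosen with earlier results of these data known. From the deposited TPM, log2(TPM + 1) was taken for 10127 genes that averaged 1 TPM or more over the libraries. This scale understates the change of low genes. All 10 libraries entered 1 fit by group in limma (version 3.58.1, R version 4.3.3), which left 5 residual degrees of freedom, with variances moderated along a mean-variance trend. P-values were adjusted by the Benjamini-Hochberg method over all genes within a comparison, and an adjusted p under 0.05 was the threshold. Tests were two-sided and intervals were 95%. No test was run over the members as a list. Figures were drawn with matplotlib version 3.10.9.

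Members were named by rule: those past the threshold, the 2 largest rises and 2 largest falls in each comparison, the 3 highest and 3 lowest of each subunit, the 3 with the smallest p among the 5 groups, MRPL12, MRPS30 and the MRPS18 paralogs, and those at 0 in every library. From other lists of mitochondrial genes, up to 6 past the threshold were named. A gene of the marker lists is not reported here. A few others, chosen after their values were seen, are those of the count of libraries that do not overlap and those with a motif. Coordinates, overlaps and pseudogenes were taken from GENCODE release 44 on GRCh37 (hg19). Promoters were taken from RefSeq on GRCh38.p14 and matched 67 of the 76 symbols.

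The fit was run on simulated data, drawn for the same 10127 genes, in which known changes had been placed. For LK against sgGal4 it recovered 1.49% of genes changed by 0.5 on the log2 scale, 23.9% of those changed by 1 and 54.5% of those changed by 2, with 2 unchanged genes called. For the mean of the 4 groups the shares were 4.48%, 38.8% and 84.8%. These shares are over all genes, and recovery among the members alone was not tested. A change of 0.5 was missed in most genes, and the members' median differences from sgGal4, 0.15 to 0.29, were smaller.

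The alternatives were a pseudocount of 0.1, no filter, a filter at 10 TPM, median-of-ratios size factors, quantile normalization, removal of the mitochondrial-genome genes with rescaling, no mean-variance trend, separate fits with just the libraries of a comparison, a replicate block, and leaving out each library in turn. For genes of other lists, the fit without sgGal4 replicate 1 was added after the data were seen. MRPS18A and MRPS30 were also counted with the large subunit. Replicate numbers did not pair the libraries: over 10 pairs of groups, the correlation of the deviations of same-numbered libraries was -0.0213 to 0.0229.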

Additional observations from a re-analysis of the deposited data

How the results depend on the processing

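Depth is unknown. With 2 libraries a group, most changes of 1 on the log2 scale were missed when known changes were placed among all 10127 genes. The median SE in LK against sgGal4 was 0.34 over all genes tested and 0.22 over the members. The share recovered among the members alone was not tested, so a member without a call cannot be read as unchanged. The number of members called in K, 1, was 3 with a filter at 10 TPM, 0 with the mitochondrial genes removed, without a mean-variance trend or with only the groups compared, and 0 to 1 with a library left out. In L, 0, it was 1 with the filter at 10 TPM and 1 with quantile normalization, and 0 in all other settings. In LK, 3, it was 0 without a trend or with only the groups compared. It was 2 without a filter, with size factors, with quantile normalization or with the mitochondrial genes removed. With any library left out it was also lower than 3. For the mean of the 4 groups, 2, it was 1 without a filter, 0 without a trend, and 1 to 2 with a library left out. For any difference among the 5 groups, 1, it was 0 without a filter, with size factors, with quantile normalization, with the mitochondrial genes removed, without a trend, with the replicate block, and with any library left out. KL, dual against single effectors and LK against KL had 0 in every setting run. As a fit with the replicate number as a block gave 2 calls in LK and 1 for the mean of the 4 groups, and the numbers did not pair the libraries, the block says nothing of the strength of a difference. A left-out library leaves a lone one in its group, which is assumed to vary like the others.

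The members' median log2 difference stayed above 0 against sgGal4 in every setting run. With the mitochondrial genes removed it was 0.16 in K, 0.16 in LK, 0.053 in KL and 0.15 for the mean of the 4 groups. With a library left out it was 0.17 to 0.38 in K, 0.12 to 0.25 in L, 0.18 to 0.34 in LK, 0.070 to 0.25 in KL and 0.14 to 0.30 for the mean, where the ends came from the sgGal4 libraries. MRPS36 for dual against single effectors ran from -0.16 to 1.24 with a library left out, and the lowest value was that without L replicate 1, in which it is listed at 0. The count of members with all sgHS2 libraries above sgGal4, 9, was 4 with the mitochondrial genes removed, an alternative chosen after seeing the data.

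With MRPS18A and MRPS30 counted in the large subunit, its summed TPM was 3243 in LK and 2980 in KL, that of the small subunit was 1551 in K, 1511 in LK and 1387 in KL, and the ratio was 2.12 in sgGal4, 2.10 in K, 2.15 in LK and 2.15 in KL. Other scalings moved the sums in LK by more than their small SD, to 3020 for the large and 1593 for the small subunit with the mitochondrial genes removed, and to 3068 for the large subunit with size factors.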
